A study of Mus musculus with 24 samples.

Results

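The histone genes of the mouse were followed in the prefrontal cortex of Df16(A)+/- mice and their wild-type littermates. A probe set, the unit that makes up 1 row of the deposited array table, was taken as a histone probe set when any of its gene symbols began with H1f, H2ac, H2bc, H2bu, H3c, H4c or H3f3, or was H2aw, H2ax, H2az1, H2az2 or H2aj. The rule found 86 of the 35556 probe sets. After 2 with values identical to another were merged, 84 remained of the 22855 distinct probe sets with a symbol. They carry 75 histone symbols: 66 counted as replication-dependent, on 70 probe sets, and 9 as variant, on 14. The class was set by name: any symbol not on a fixed list of variants was counted as replication-dependent. This takes in H2bu1-ps, a pseudogene by its symbol. Coding sequences of the replication-dependent H2A, H2B, H3 and H4 genes are close to identical within a family. Of the 84 probe sets 39 carry several symbols, and their signal cannot be assigned to a single gene. The other 45 carry 1 symbol. Joined by shared symbols, the 84 fall into 30 separate sets.

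The mice were 12 males per genotype, aged 8 weeks, on a C57BL6/J background, and prefrontal cortex was the tissue of both groups. The mutants, labelled MUT, carry on a single chromosome a deletion that models the human 22q11.2 microdeletion. It spans Hira, which encodes a chaperone that deposits histone H3.3. The labels name 1 array per replicate and do not say whether tissue was pooled, so the spread given is that between these arrays.

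Histones H2A, H2B, H3 and H4 form the core around which DNA is wrapped, and H1 binds the linker between cores. Replication-dependent histone genes lie in clusters, are transcribed during DNA synthesis, and yield mRNAs that lack introns and end in a stem-loop in place of a poly(A) tail. Variant genes such as H3f3a, H3f3b and H2az1 yield mostly polyadenylated mRNAs throughout the cell cycle and in cells that no longer divide, as most cortical cells are. The labelling kit named in the labels does not select polyadenylated RNA. Transcripts of both kinds could therefore be labelled.

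Promoters are shown for 5 genes, because replication-dependent histone genes are read from compact promoters and H4 and H2A members have probe sets lower in the mutants. H4c4 and H2aw have probe sets of their own past the threshold used below, H2ac20 shares such a probe set, H2bc18 had the largest negative difference among histone probe sets, and H3f3b is a variant. Each stretch is the 160 bases before the transcription start, from RefSeq on GRCm38.p6, and capitals mark the TATA element TATAAA, the CCAAT box CCAAT and the octamer ATTTGCAT on either strand. None of these motifs contains another.
H4c4 (chr13:23581408-23581567, + strand): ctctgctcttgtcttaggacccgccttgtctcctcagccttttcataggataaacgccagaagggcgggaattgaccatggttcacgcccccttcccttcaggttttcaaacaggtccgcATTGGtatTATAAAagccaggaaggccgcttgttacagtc
H2aw (chr11:58954525-58954684, + strand): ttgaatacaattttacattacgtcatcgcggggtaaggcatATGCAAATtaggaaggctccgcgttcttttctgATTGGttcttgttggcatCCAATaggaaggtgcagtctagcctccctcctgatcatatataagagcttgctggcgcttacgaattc
H2ac20 (chr3:96220881-96221040, - strand): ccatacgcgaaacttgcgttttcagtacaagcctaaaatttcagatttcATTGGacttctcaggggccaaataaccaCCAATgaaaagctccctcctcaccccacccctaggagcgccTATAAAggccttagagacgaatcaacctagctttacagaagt
H2bc18 (chr3:96269540-96269699, + strand): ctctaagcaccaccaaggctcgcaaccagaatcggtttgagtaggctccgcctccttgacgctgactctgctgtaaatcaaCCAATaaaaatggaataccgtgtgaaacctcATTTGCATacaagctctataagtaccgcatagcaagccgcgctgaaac
H3f3b (chr11:116024505-116024664, - strand): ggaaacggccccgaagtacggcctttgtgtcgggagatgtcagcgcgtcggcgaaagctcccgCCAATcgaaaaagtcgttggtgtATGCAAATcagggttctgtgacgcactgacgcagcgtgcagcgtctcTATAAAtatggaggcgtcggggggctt
In H4c4 the motifs were a CCAAT box on the reverse strand beginning 40 bases before the start and TATAAA at 32 bases. H2aw had CCAAT boxes at 86 and 68 bases and an octamer at 119 bases, and its stretch holds no TATAAA. H2bc18 joined a CCAAT box at 79 bases to an octamer at 48 bases.

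Over the 250 bases before the start, both strands read, TATAAA was present in 47.5% of 61 promoters of replication-dependent histone genes and in 12.4% of all 32851 promoters of the RefSeq table. The 61 promoters belong to 60 of the 66 symbols. CCAAT was present in 83.6% of them against 33.8% of all, and the octamer in 14 of the 61 against 526 of all 32851. The families differed in these letters. CCAAT was found in all 18 H2A and all 16 H2B promoters matched, and in 3 of 11 H4 promoters. The octamer was found in 7 of the H2A and 7 of the H2B promoters and in none of the H4, H3 or H1 promoters matched. Of 8 variant promoters, 6 held CCAAT and 1 held TATAAA. These are matches of letters and say nothing about binding.

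The authors' values are on the log2 scale, and a difference is the mutant minus the wild-type mean, so that -0.15 is a fold of 0.90 or so. The arrays were alike, with pairwise correlations from 0.994 to 0.997 across probe sets. Hira, which checks the genotype labels, averaged 8.32 ± 0.09 over the mutants and 8.96 ± 0.06 over the wild types (SD, n = 12 each), with every mutant below every wild type. The 8 measured neuron markers, Snap25 and Slc17a7 among them, had mean levels from 10.6 to 13.6, and none of the measured markers of neurons, glia, endothelium and blood passed the threshold (limma, adjusted p under 0.05). In whole tissue, fewer cells of a type and less RNA per cell cannot be told apart. Wild-type replicates 10 and 11 stood apart in granulocyte transcripts, and the differences of the families and classes are given below with and without them.

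The histone differences between genotypes were small and mostly negative in the replication-dependent class. Of the 84 histone probe sets, 9 were lower in mutants at an adjusted p under 0.05 (limma, Benjamini-Hochberg over all 22855) and 0 were higher. Over all probe sets 0.219% were lower and 0.547% higher, 0.766% in either direction. At an unadjusted p under 0.05, 43 histone probe sets were lower and 2 higher, where 5.86% and 5.88% of all probe sets were. The histone family was chosen because H4c4, H4c14 and H2aw were known to be lower in these samples, so these counts and the differences below are a description and no p is given for a member. All 9 were replication-dependent. They comprise 6 of the 11 H4 and 3 of the 21 H2A probe sets, with 0 of 13 for H3, 0 of 18 for H2B, 0 of 5 for H1 and 0 of 2 that join 2 families.

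**Figure D1:**
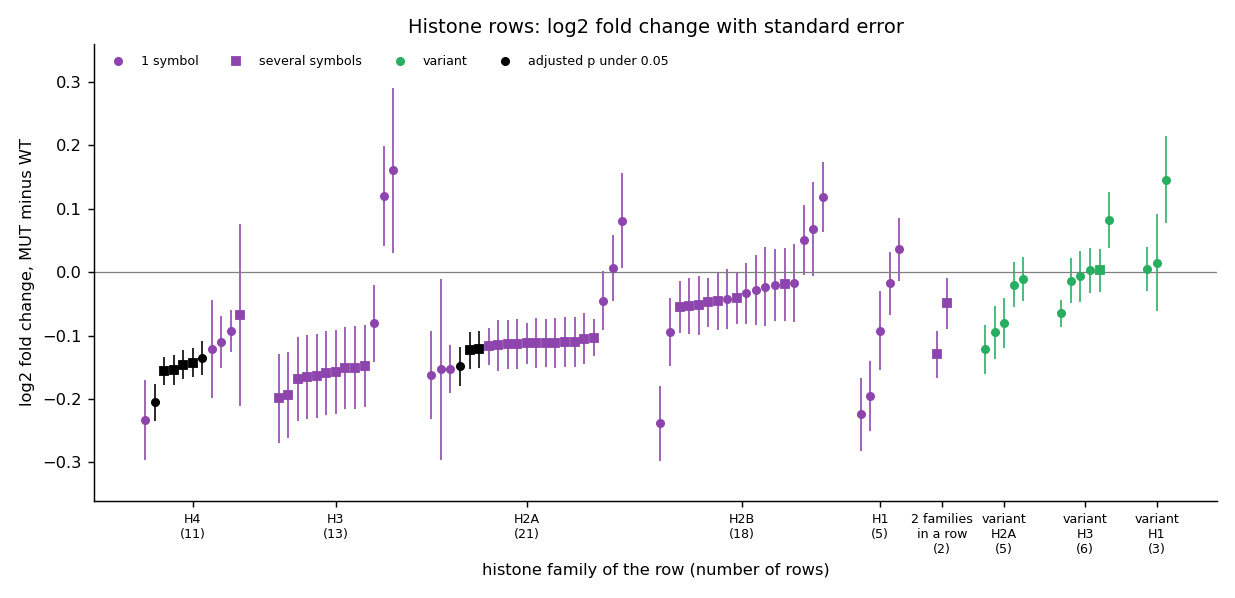
Difference between genotypes (MUT minus WT, log2, point) with its standard error (bar) for each of the 84 histone probe sets, ordered by family; squares mark probe sets with several symbols and black points those with an adjusted p under 0.05. All 11 H4 probe sets lie below 0, the 10 H3 probe sets of 3 or more symbols lie as low with wider errors, and most H2B and variant points lie nearer 0.

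H4 forms a tetramer with H3 at the centre of the nucleosome, and its genes all encode nearly the same protein. All 11 H4 probe sets had a negative difference, with a median of -0.14 and a range from -0.23 to -0.07. H4c4, on chromosome 13, had a level in mutants from 11.89 to 12.11 with a median of 11.94, and in wild types from 12.09 to 12.28 with a median of 12.18. Of the 12 mutants, 10 lay below the lowest wild type, so the groups overlapped by 2 mice on the mutant side. The difference was -0.20 ± 0.03 (SE), a fold of 0.868. H4c14, on chromosome 3, had levels from 8.67 to 8.85 around a median of 8.78 in mutants and from 8.81 to 9.06 around 8.89 in wild types. Here 8 mutants lay below every wild type, and the difference was -0.14 ± 0.03.

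The 4 H4 probe sets that carry 3 or more symbols gave the cleanest separation. The one shared by H4c1, H4c2, H4c6, H4c9 and H4c18 ran from 11.63 to 11.77 in mutants (median 11.69) and from 11.81 to 11.93 in wild types (median 11.85), a difference of -0.16 ± 0.02. The highest mutant was below the lowest wild type. A second, shared by 7 H4 genes, ran from 11.60 to 11.77 in mutants and from 11.81 to 11.93 in wild types, again with no overlap. H4c1, H4c2, H4c3, H4c6 and H4c18 share the other two, at -0.14 ± 0.02 and -0.15 ± 0.02. In the former the groups did not overlap, and in the latter 11 of 12 mutants lay below the lowest wild type. Thus 3 histone probe sets separated the genotypes fully, where 0.105% of all probe sets had every mutant below every wild type and 0.114% had every mutant above. Probe sets that share a histone symbol were also averaged first, a choice made after seeing the data. Then 4 of 30 sets were lower, where 0.197% of all probe sets were. Among them were H4c4, H4c14 and the H2aw set at -0.13 ± 0.03, the genes for which the family was chosen. The other was a set of 9 H4 probe sets at -0.14 ± 0.03. The fully separated probe sets share symbols, and the deviations of the 4 from their genotype means were correlated over the 24 mice (median r = 0.91), so they are not independent readings of separate genes. Their mean per mouse ran from 11.71 to 11.86 in mutants and from 11.89 to 12.01 in wild types.

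**Figure D2:**
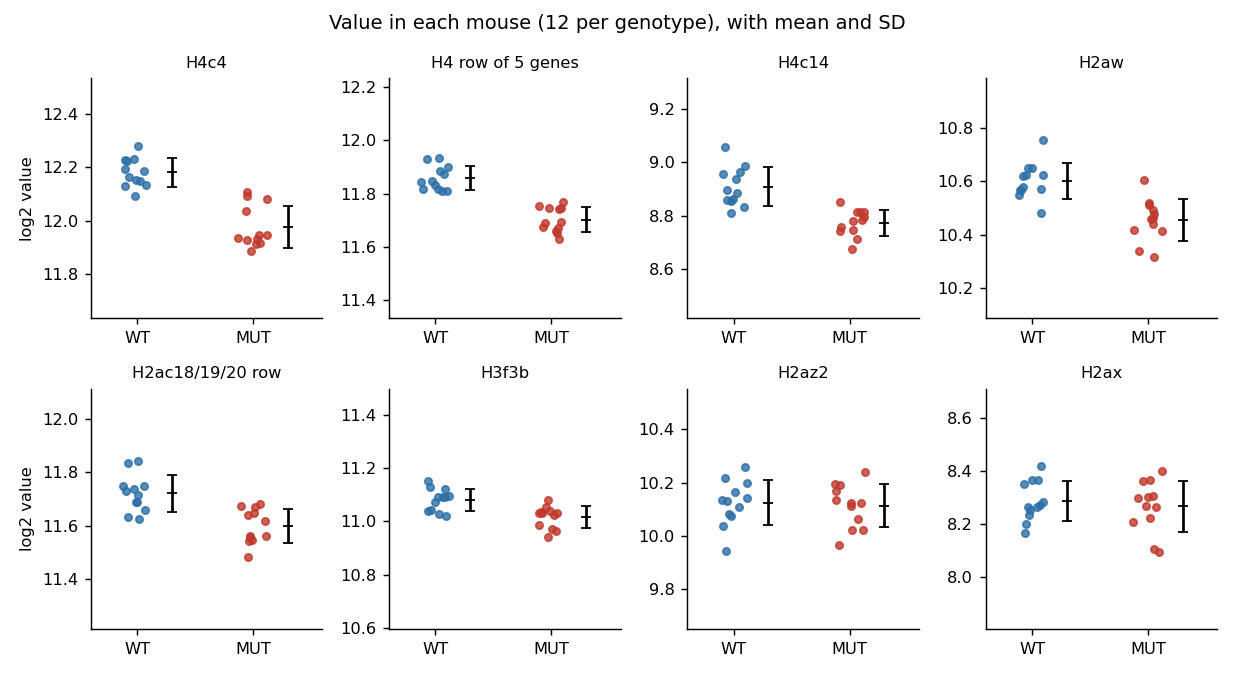
Level (log2) in each mouse for 8 histone probe sets, wild types (blue) and mutants (red) side by side, with the mean and SD of each group (12 mice) as a black bar. H4c4 shows 10 of 12 mutants below the lowest wild type and the shared H4 probe set shows 12 of 12, while the variants H2az2 and H2ax overlap across most of their range.

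The remaining H4 probe sets had lower levels or wider spread. H4c6 alone ranged from 7.69 to 8.23 in mutants with a median of 7.97, and from 7.98 to 8.42 in wild types with a median of 8.12. Its difference of -0.23 ± 0.06 was larger than that of H4c4 and its error was larger too. It was not past the threshold, although 7 mutants lay below every wild type.

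H2A pairs with H2B on the outer faces of the nucleosome. Of 21 replication-dependent H2A probe sets 19 had a negative difference, with a median of -0.11. H2aw, on chromosome 11 away from the large clusters, had levels from 10.32 to 10.61 in mutants (median 10.46) and from 10.48 to 10.76 in wild types (median 10.60). The groups overlapped, with 8 mutants below the lowest wild type, and the difference was -0.15 ± 0.03. A second probe set, which H2aw shares with the neighbouring gene Trim17, was at -0.10 ± 0.03 and did not pass.

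H2ac18, H2ac19 and H2ac20 share both other H2A probe sets past the threshold. The first ran from 11.48 to 11.68 in mutants (median 11.59) and from 11.63 to 11.84 in wild types (median 11.72), and the second from 11.04 to 11.21 (median 11.13) and from 11.16 to 11.40 (median 11.25). In each, 7 of 12 mutants lay below the lowest wild type and the difference was -0.12 ± 0.03. The first is numbered among probe sets of chromosome 13, while these genes lie on chromosome 3, so it may read related copies. Both calls depended on single mice. Without any one of mutant replicates 1, 2, 3, 4, 6, 7 and 10 or wild-type replicates 4, 6, 8, 9, 10, 11 and 12 both probe sets missed the threshold, and without mutant 5 or wild type 5 one did. Their differences over the 24 leave-one-out fits lay between -0.11 and -0.13. The 6 H4 probe sets and H2aw stayed past the threshold in each of these 24 fits. H2ac21, on chromosome 3, was just outside the threshold at -0.15 ± 0.04, with levels from 11.04 to 11.28 in mutants and from 11.17 to 11.49 in wild types. The 9 H2A probe sets of 3 or more symbols whose genes lie on chromosome 13 had a median of -0.11, and none of them passed. The brightest of this kind, shared by H2ac7, H2ac12, H2ac13, H2ac23 and H2ac24, ran from 11.63 to 11.86 in mutants (median 11.76) and from 11.72 to 12.11 in wild types (median 11.84), at -0.11 ± 0.04. Both probe sets that carry 10 H2A symbols were also at -0.11 ± 0.04.

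H2B was the core family nearest to 0. Of 18 probe sets 15 were negative, with a median of -0.04, and 0 passed. The exception in size was H2bc18, on chromosome 3, with a level from 6.83 to 7.33 in mutants (median 7.17) and from 7.15 to 7.61 in wild types (median 7.33). Of the mutants, 6 lay below every wild type. The difference of -0.24 ± 0.06 was the largest of any histone probe set and fell just short of the threshold. H2bc22, in contrast, was at 0.12 ± 0.05, from 6.41 to 6.89 in mutants and from 6.38 to 6.75 in wild types. The 6 H2B probe sets of 3 or more symbols lay between -0.06 and -0.04.

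Linker histones of the replication-dependent class had 5 probe sets, 4 of them negative, with a median of -0.09. H1f5 ran from 6.73 to 7.16 in mutants (median 6.87) and from 6.87 to 7.53 in wild types (median 7.08), a difference of -0.22 ± 0.06. H1f1 was at -0.20 ± 0.06. Neither passed the threshold, and the groups of H1f5 overlapped in 6 mutants.

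H3 carries many of the marked lysines of the nucleosome tail. Its 13 replication-dependent probe sets had a median of -0.16, as low as that of H4, yet 0 passed. The errors differ: the median standard deviation between mice of the same genotype was 0.169 for the 10 H3 probe sets of 3 or more symbols and 0.048 for the 4 such H4 probe sets. The H3 probe set with the most negative difference, shared by H3c13 and 3 other genes, ran from 11.17 to 11.55 in mutants (median 11.32) and from 11.24 to 12.04 in wild types (median 11.49), at -0.20 ± 0.07. The groups overlapped, with 3 mutants below every wild type, and the 2 highest wild types were replicates 11 and 10. The 3 single-symbol H3 probe sets were dim, below the median level of all probe sets. H3c4 was at -0.08, and H3c7 and H3c15 were at 0.12 ± 0.08 and 0.16 ± 0.13.

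Wild-type replicate 11 had the highest value of the 24 mice in 36 of the 70 replication-dependent probe sets and in 0 of the 14 variant ones. It was highest in 785 of all 22855. The 36 included all 10 H3, all 9 chromosome 13 H2A and all 6 H2B probe sets of 3 or more symbols, and 0 of the 4 H4 ones. The same mouse and wild-type replicate 10 were highest for granulocyte transcripts. The mean of the 7 markers Ngp, S100a8, S100a9, Ltf, Camp, Elane and Mpo was 8.04 in replicate 11 and 7.18 in replicate 10, at most 6.11 in the other wild types and from 5.33 to 6.01 in mutants. All 7 had a negative difference, with a median of -0.36, and none passed. Without wild-type replicates 10 and 11, 6 of the 7 were below 0, with a median of -0.06. No detection call is given, so no marker could be said to be absent. Ngp, a neutrophil granule protein, was at 10.6 and 9.42 in these mice and at most 7.80 and 7.49 in the other wild types and the mutants. The proliferation marker Mki67 was at 6.53 and 5.95 in them, and at most 5.61 in the other wild types and 5.53 in mutants.

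**Figure D3:**
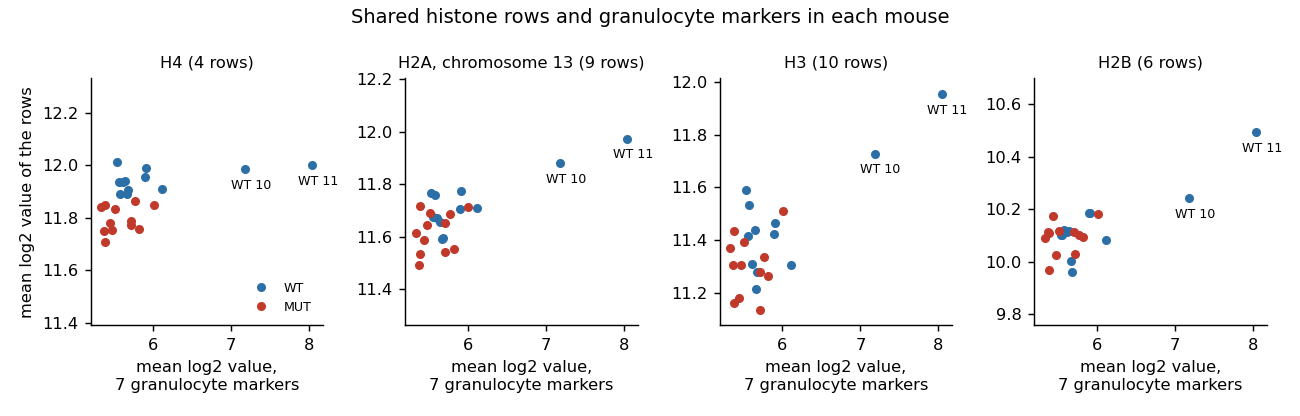
Mean level per mouse of the 7 granulocyte markers (horizontal axis, log2) against the mean of the shared probe sets of a histone family (vertical axes, log2). Wild-type replicates 10 and 11, at 7.18 and 8.04, lie to the right of all other mice, and replicate 11 is the highest mouse for H3, H2B and the chromosome 13 H2A but not for H4.

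Leaving these 2 mice out, a choice made after seeing the data, moved some families more than others. The H4 median stayed at -0.14. The H3 median moved from -0.16 to -0.08, that of H2A from -0.11 to -0.07 and that of H2B from -0.04 to -0.003. For H1 the median was -0.09 with all mice and -0.08 without these. The H3 probe set named above moved to -0.12 ± 0.05, and H1f5 to -0.17 ± 0.05. Without them 7 histone probe sets were lower past the threshold, the 6 H4 and H2aw, where 0.241% of all were. The part that the cells behind these markers play in the other families was not tested. In the shared H4 probe sets the mean difference was -0.15 with all mice and -0.14 without these.

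**Figure D4:**
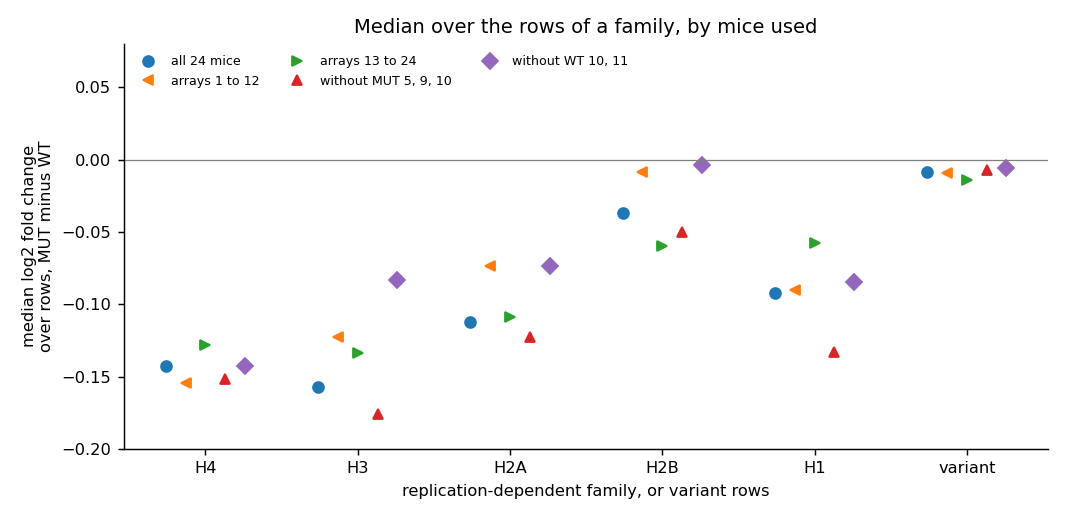
Median difference between genotypes (log2) of each histone family with all 24 mice, without wild-type replicates 10 and 11, without mutant replicates 5, 9 and 10, and in arrays 1 to 12 and 13 to 24 alone. The H4 median lies between -0.15 and -0.13 in these settings, whereas H3 moves from -0.16 to -0.08 and H2B from -0.04 to -0.003 without the 2 wild types.

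Mutant replicates 5, 9 and 10 lay apart from the other arrays in earlier results of these data. Without them 6 histone probe sets were lower, all H4, where 0.166% of all probe sets were. Arrays are numbered in the labels. In arrays 1 to 12, with 7 mutants and 5 wild types, 2 histone probe sets were lower, both shared H4 probe sets, against 0.123% of all. In arrays 13 to 24, with 5 mutants and 7 wild types, 0 were lower, against 0.105% of all, and 25 of the 84 had an unadjusted p under 0.05 in either direction, where 10.2% of all probe sets did. The H4 median was -0.15 in the former and -0.13 in the latter, and each of the 11 H4 probe sets was below 0 in both.

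Variant histones replace the replication-dependent ones outside DNA synthesis. Their 14 probe sets had a median of -0.01, 8 were below 0, and 0 passed in either direction. H3f3b, the H3.3 gene whose promoter is printed above, had a level from 10.94 to 11.08 in mutants (median 11.03) and from 11.02 to 11.15 in wild types (median 11.09). The groups overlapped, with 4 mutants below every wild type, and the difference was -0.06 ± 0.02. H3f3a, the other H3.3 gene, is listed on 5 probe sets. The one numbered among chromosome 1 probe sets, where H3f3a lies, is shared with Gm12657, ran from 10.23 to 10.50 in mutants and from 10.27 to 10.49 in wild types, and differed by 0.003 ± 0.03. The other 4 are numbered among probe sets of chromosomes 13 and 6, so they may read related copies. Their differences were 0.08, 0.003, -0.01 and -0.01.

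The variant H2A genes had 5 of 5 probe sets below 0, with a median of -0.08, and none passed. H2aj ran from 7.46 to 7.72 in mutants (median 7.61) and from 7.55 to 7.87 in wild types (median 7.77), at -0.12 ± 0.04. H2az1, which encodes H2A.Z at promoters, was at -0.09 ± 0.04 on one probe set and -0.08 ± 0.04 on another numbered among chromosome 6. H2az2, its paralogue, was at -0.01 ± 0.03, and H2ax, whose product is phosphorylated at DNA breaks, at -0.02 ± 0.04. In none of these were the genotypes separated: in H2aj, the largest, 1 mutant lay below the lowest wild type. The 3 linker variant probe sets were above 0 in sign, H1f10 and H1f7 by less than their errors. H1f8, an oocyte linker histone with a dim signal here, ran from 5.06 to 5.85 in mutants (median 5.25) and from 4.91 to 5.33 in wild types (median 5.19), at 0.15 ± 0.07. For H1f8, mutant replicates 5 and 9 were highest, at 5.85 and 5.62, and the difference ran from 0.10 to 0.17 over the 24 leave-one-out fits. H1f10 and H1f7 were at 0.005 ± 0.03 and 0.02 ± 0.08. H1f0 was not analysed here.

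Set side by side, 62 of 70 replication-dependent and 8 of 14 variant probe sets were below 0, with medians of -0.11 and -0.01, beside 51.4% and -0.002 for all probe sets. Of the replication-dependent ones, the 32 with 1 symbol had 24 below 0 and a median of -0.06. The 38 with several symbols, many of them overlapping readings, had 38 below 0 and a median of -0.11. Without wild-type replicates 10 and 11 these medians were -0.04 and -0.08. The mean over replication-dependent probe sets was 8.94 ± 0.05 (SD, n = 12) per mutant and 9.03 ± 0.09 per wild type. Wild-type replicate 11 had the highest such mean, as it had in 36 of the 70 probe sets. Without wild-type replicates 10 and 11 the difference moved from -0.09 to -0.06, and the median of the class from -0.11 to -0.07. The mean over variant probe sets was 8.89 ± 0.05 and 8.90 ± 0.03, and their median stayed at -0.01 without these mice. Within H2A the classes lay closer. The mean difference was -0.10 for replication-dependent and -0.07 for variant H2A, and -0.07 for each without these mice. The H2A medians without them were -0.07 for replication-dependent and -0.10 for variant probe sets. The difference between the classes was not tested, because the family was picked from this contrast and its probe sets overlap. The median level was 10.10 in replication-dependent and 10.17 in variant probe sets, and differences varied with brightness. All 46 replication-dependent probe sets at or above 7.53, the median level of all probe sets tested, were below 0. Their median was -0.12, where 64.7% of all bright probe sets were below 0 with a median of -0.02. The 24 dimmer ones had 16 below 0 and a median of -0.04, and dim probe sets as a whole had a median of 0.02. At a mean level of 10 or more, the median was -0.13 over 36 replication-dependent probe sets, -0.01 over 8 variant ones and -0.01 over all 3704. These 8 are not separate genes: H3f3a is on several of them, at -0.01 to 0.003. The others are H2az1 at -0.09 and -0.08, H3f3b at -0.06 and H2az2 at -0.01. Without wild-type replicates 10 and 11, 42 of the 46 bright replication-dependent probe sets were below 0, with a median of -0.08, and the median of the 24 dimmer ones was -0.02. At a level of 10 or more, 34 of 36 were then below 0, with a median of -0.08, and the variant median stayed at -0.01.

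**Figure D5:**
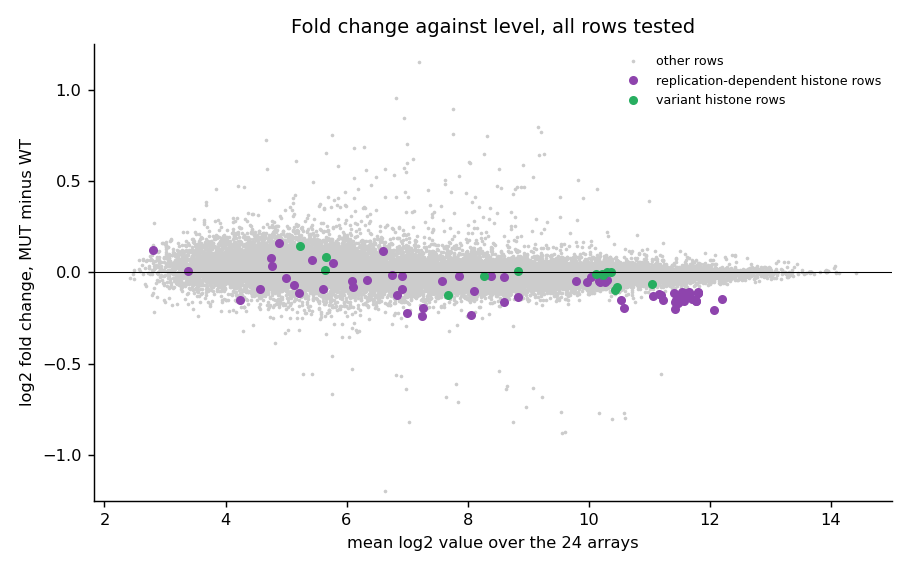
Mean level over the 24 mice (horizontal axis, log2) against the difference between genotypes (vertical axis, log2) for replication-dependent and variant histone probe sets, over all probe sets in grey. All 36 replication-dependent probe sets at a level of 10 or more lie below 0. The 8 variant ones at that level run from -0.09 to 0.003, with 6 below 0 and a median of -0.01. Several of these 8 are probe sets of H3f3a.

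Probe sets of a family moved together from mouse to mouse, as those with shared symbols must. The median correlation of deviations from the genotype means, over 24 mice and with the 2 wild types included, was 0.99 among the shared H3 probe sets and 0.96 among the shared H2B ones. Between families it was 0.80 for H3 with H2B and 0.88 for H3 with the chromosome 13 H2A. For H4 it was 0.64 with H3, 0.55 with H2B and 0.72 with the chromosome 13 H2A. Over the 22 mice without wild-type replicates 10 and 11, H3 with H2B was at 0.55 and H3 with the chromosome 13 H2A at 0.76, while the values for H4 were 0.67, 0.53 and 0.70. Across all pairs the median was 0.32 within the replication-dependent class, 0.14 between replication-dependent and variant, and 0.08 within the variants. Among the replication-dependent probe sets with 1 symbol it was 0.10. These correlations describe probe sets that share arrays and, in part, sequence.

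Genes that make, process or place histones were also read. Of 25 measured genes for histone mRNA transcription, processing and decay, 0 passed and 17 were below 0, with a median of -0.03. Npat, the coactivator of replication-dependent histone genes, was at -0.09 ± 0.04 (limma, adjusted p = 0.320), and Eri1, an exonuclease that trims the histone stem-loop, at -0.11. Of 26 measured chaperone and deposition genes 1 was lower, Hira itself, at -0.64 ± 0.03 (limma, adjusted p = 1.17e-13), and the median was -0.02. Hat1, which acetylates newly made H4, was at -0.11 (limma, adjusted p = 0.275), Anp32e, which removes H2A.Z, at -0.11 and Daxx, the other H3.3 chaperone, at -0.10, and none of these passed. Of 35 measured proliferation genes 1 was lower, Cdc45, which lies in the deletion, at -0.30 ± 0.04, and 24 were below 0 with a median of -0.03. The transcription factor E2f1 was at -0.08, E2f8 at -0.18 and Top2a at -0.19 ± 0.10, none of them past the threshold. Top2a, a topoisomerase of dividing cells, was at 5.58 and 5.29 in wild-type replicates 11 and 10, at most 4.98 in the other wild types and 4.78 in mutants, and its difference was -0.07 ± 0.06 without these 2 mice. The mean of the proliferation genes was highest in wild-type replicates 11 and 10, at 6.65 and 6.58.

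A further H4 gene, H4f16, was not taken up by the symbol rule. Its level averaged 7.45 ± 0.10 over the mutants and 7.55 ± 0.18 over the wild types (SD, n = 12 each), and its difference was -0.10 ± 0.06 (limma, adjusted p = 0.532). The 6 measured members of other core histone genes outside the rule had a median of 0.02, and 0 passed.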

How the data were processed

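Total RNA of 24 prefrontal cortex samples was extracted with a miRNeasy kit and hybridised to Affymetrix arrays, per the labels' protocols. The authors deposited log2 values made with RMA, per the submitters' processing notes; log2 was read from their range, 1.82 to 14.49. RMA's version and the genome build were not given in the sources used here. Of 35556 probe sets, 21218 had 1 symbol, 1881 several and 12457 none in the supplied annotation; 244 with values identical to another were merged. The 0 columns of other samples left nothing out.

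Mutants and wild types were compared with limma 3.58.1 in R 4.3.3 (lmFit, eBayes, genotype as the sole term), adjusted by Benjamini-Hochberg over 22855 probe sets with a threshold of 0.05. Tested on simulated data for this comparison, with 22855 probe sets, the fit recovered 6 of 67 changed by 0.1 on the log2 scale, 39 of 67 changed by 0.2 and 61 of 66 changed by 0.4, with 11 false calls.

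The members and lists were chosen with earlier results of these data known. Named were H4c4, H4c14 and H2aw, every histone probe set past the threshold, the 4 of each class with the smallest p and the 4 brightest, the main variants, Hira, and up to 4 genes of each list; H4c6, H1f1, H2bc22, the H3 probe sets, H1f7, H1f10, H4f16 and H2aw with Trim17 were named after their values were seen. Alternatives covered scaling, the probe sets tested, variance, blocks and arrays.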

Additional observations from a re-analysis of the deposited data

How the results depend on the processing

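Counts of histone probe sets past the threshold depended on how shared probe sets were treated. With 1 symbol only, 3 were lower, where 0.204% of all were. With the brightest such probe set per gene 3 were, where 0.228% of all were. These 3 were H4c4, H4c14 and H2aw, the genes from which the family was chosen. Averaging probe sets that share a symbol, chosen after seeing the data, left 4 of 30 sets, where 0.197% of all were lower. They were the same H4c4, H4c14 and H2aw, from which the family was chosen, and the shared H4 set. Moderation with a trend and robust variances gave 15, where 0.333% of all were lower. Arrays 1 to 12 alone gave 2, against 0.123% of all, and arrays 13 to 24 alone 0, against 0.105%. Fewer samples entered these fits. No probe set was higher under any setting, and no difference changed direction among the called ones.

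Leaving out each mouse in turn gave 7 to 12 lower and 0 to 0 higher, where 0.184% to 0.28% of all were lower. The replication-dependent median then ran from -0.12 to -0.09 and the variant median from -0.02 to 0.004; the per-mouse mean differences ran from -0.10 to -0.07 and from -0.02 to -0.01. For the other settings, quantile normalization and median centring gave 7 each, where 0.193% and 0.214% of all were lower. The array number (1 to 12 or 13 to 24) as a block gave 10, where 0.249% of all were.

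Replicate numbers were not used as pairs in the main fit. Deviations of same-numbered mice correlated at -0.08 to 0.30, with a median of 0.11 against -0.01 for other pairs. The correlation was over 0.1 in 7 of 12 pairs, and 5 of 24 arrays matched their own number best. These values do not settle whether the numbers mark pairs. With the number as a replicate block 11 were lower, where 0.201% of all were. They were the 9, the probe set of H2aw and Trim17, and one shared by H2ac18 to H2ac20 and H3 genes. No background level is given, so dim probe sets have no detection limit.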
